A study of Rattus norvegicus with 59 samples.

Results

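Acute phase plasma proteins are secreted by the liver into blood in larger amounts during inflammation or tissue injury. The 10 genes described here encode such proteins and were taken by gene symbol: A2m, Lbp, Orm1, Fga, Fgb, Fgg, Hp, Crp, Itih3 and Itih4. They were read on 13 of the 31042 probe sets tested and made up 10 of the 14217 genes that had a probe set with 1 symbol. All 13 probe sets were tested, with no filter on low signal, and all 13 carried the same symbol in RefSeq through their gene ID. Each gene was represented by its brightest probe set.

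Expression was measured in whole liver of male Sprague-Dawley rats on 59 Affymetrix arrays, 1 per liver. Exposed rats had been given cadmium chloride at 1.25 mg/kg (Cd: 4 livers on day 1 and 5 each on days 3 and 7) or sodium dichromate (Cr: 5 livers on each of days 1, 3 and 7) once into the peritoneum. Each metal had its own controls, injected with sterile saline alone, with 5 livers on each of the same days. The labels put the Cr dose at 20 mg/kg and the study's methods also name another dose. The day 1 Cd group has 4 livers, and the study's methods left out 1 rat of it that had taken up no Cd and whose array lay among the controls. Every comparison set exposed livers against the controls of the same metal and day, in log2 units of signal, where a difference of 1 is a change of 2-fold. A gene was called higher or lower at a limma adjusted p of 0.05 or less.

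In the liver, hepatocytes make most acute phase proteins, and the genes are switched on by cytokines released from macrophages and other cells. Interleukin-6 acts through the transcription factor STAT3, interleukin-1 acts through NF-kB and C/EBP factors, and glucocorticoids add to both. The size of the response differs between species: alpha-2-macroglobulin (A2m) is strongly induced in rats, whereas C-reactive protein (Crp) is present in rat plasma at a high level at rest. Lipopolysaccharide-binding protein (Lbp) presents bacterial lipopolysaccharide to immune cells, and alpha-1-acid glycoprotein (Orm1) binds drugs and other small molecules. Fga, Fgb and Fgg encode the 3 chains of fibrinogen, the precursor of the fibrin clot, and haptoglobin (Hp) captures free haemoglobin. Itih3 and Itih4 encode heavy chains of the inter-alpha-trypsin inhibitor family, which bind hyaluronan or circulate in plasma.

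The 250 bases before the start of 7 members are in the RefSeq promoter table (build GRCr8), and those of 5 are shown because they hold the contrast of the results below: Orm1, Fga, Fgb and Fgg were called higher on day 1 after both metals and Crp after neither. The stretches are chr5:81788259-81788508 (plus strand), chr2:170671919-170672168 (plus strand), chr2:170700876-170701125 (minus strand), chr2:170652833-170653082 (plus strand) and chr13:87693812-87694061 (plus strand), so the fibrinogen genes are neighbours. Each is written 5′ to 3′, and capitals mark matches on either strand to CTGGGAA, the core of the interleukin-6 response element of rat acute phase genes, to TTCNNNGAA, the dyad that STAT factors bind, or to TTNNGCAA, a form of the C/EBP site.
Orm1: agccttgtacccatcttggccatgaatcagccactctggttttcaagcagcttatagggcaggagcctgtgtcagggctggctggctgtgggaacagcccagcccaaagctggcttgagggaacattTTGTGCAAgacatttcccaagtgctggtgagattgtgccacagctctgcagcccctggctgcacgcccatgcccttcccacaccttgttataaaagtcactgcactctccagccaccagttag
Fga: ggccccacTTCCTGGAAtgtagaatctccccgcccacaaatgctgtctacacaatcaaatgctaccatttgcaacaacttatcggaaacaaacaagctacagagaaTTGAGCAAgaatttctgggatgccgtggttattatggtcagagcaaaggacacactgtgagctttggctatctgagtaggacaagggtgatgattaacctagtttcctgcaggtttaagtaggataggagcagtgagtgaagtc
Fgb: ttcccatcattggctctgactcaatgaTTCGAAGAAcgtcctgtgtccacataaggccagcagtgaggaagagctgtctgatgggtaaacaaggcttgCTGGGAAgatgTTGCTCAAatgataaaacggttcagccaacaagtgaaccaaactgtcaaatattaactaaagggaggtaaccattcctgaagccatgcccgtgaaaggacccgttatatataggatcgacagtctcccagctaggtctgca
Fgg: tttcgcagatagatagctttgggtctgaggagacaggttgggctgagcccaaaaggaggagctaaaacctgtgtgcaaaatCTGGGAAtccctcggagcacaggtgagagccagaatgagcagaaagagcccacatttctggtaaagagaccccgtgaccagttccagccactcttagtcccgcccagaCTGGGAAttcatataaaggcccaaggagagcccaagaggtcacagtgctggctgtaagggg
Crp: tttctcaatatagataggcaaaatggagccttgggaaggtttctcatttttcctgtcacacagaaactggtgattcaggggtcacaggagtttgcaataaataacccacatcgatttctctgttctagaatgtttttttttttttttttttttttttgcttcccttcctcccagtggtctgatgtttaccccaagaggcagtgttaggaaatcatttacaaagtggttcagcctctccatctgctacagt
CTGGGAA was found in 9.56% of the 33469 upstream stretches of this length in the table, TTCNNNGAA in 7.67% and TTNNGCAA in 9.22%. Fgg held 2 matches to CTGGGAA. Fgb held 1 match to each of the 3 motifs, and Fga held 1 to TTCNNNGAA and 1 to TTNNGCAA. In Orm1 there was 1 match, to TTNNGCAA, and in Crp none. Itih4, which was called after neither metal, also held a match to each motif, with those to CTGGGAA and TTCNNNGAA overlapping, and Itih3 held none. Fga has 2 entries in the table, and the one shown starts upstream of the other. In the other entry the match to TTCNNNGAA was not found. A2m, Lbp and Hp were not examined. Whether the matches go with being called was not tested.

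The response of these genes was found on day 1. After Cd, 5 of the 10 genes (Lbp, Orm1, Fga, Fgb and Fgg) were called higher and 0 lower, where 6.39% of all probe sets were called higher. After Cr, 6 (the same 5 and Hp) were called higher and 1 (Itih3) lower, where 14.8% of all probe sets were called higher and 11.2% lower. With a fold change of at least 1.8 as well, 2 remained after Cd (Lbp and Orm1, against 1.23% of all probe sets) and 1 after Cr (Lbp, against 1.57%). The dimmer probe set of Fga, described below and not counted here, also passed after Cr. The median difference of the 10 genes was 0.22 after Cd and 0.27 after Cr, and that of all probe sets was -0.01 and -0.03. No member was called on day 3 or day 7 after either metal. Probe sets called higher were then 0.541% and 0.00644% of all on days 3 and 7 after Cd, and 0% and 0.0354% after Cr. At an unadjusted p of 0.05 or less there were 4 members on day 3 after Cd (against 9.83% of all probe sets), 1 on day 7 after Cd (6.71%), 0 on day 3 after Cr (6.87%) and 1 on day 7 after Cr (8.44%), and 1 of 10 is near the share of all probe sets. Every exposed liver lay above every control for 7 members on day 1 after Cd (5.74% of all probe sets), for 4 on day 1 after Cr (7.04%) and for 1 on day 3 after Cd (1.53%).

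**Figure D1:**
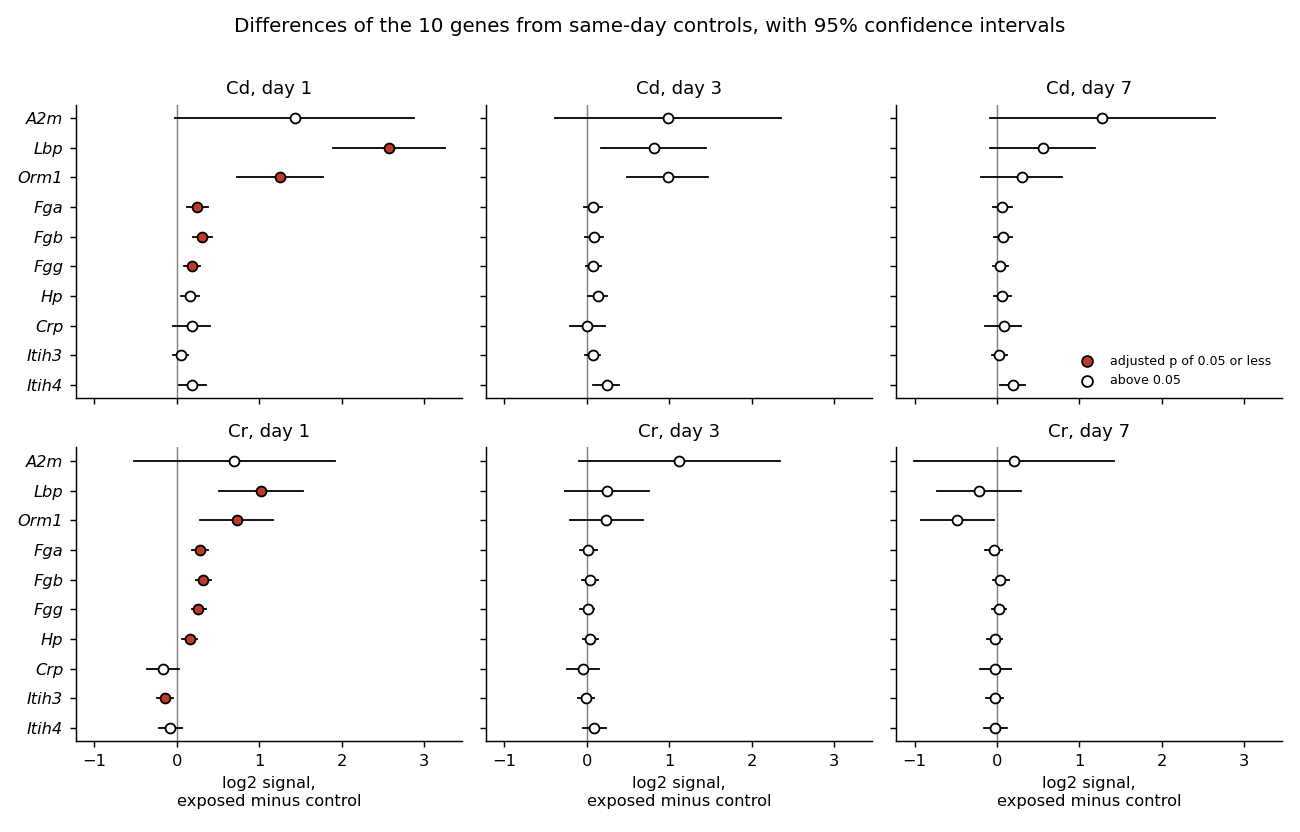
Difference in log2 signal, exposed minus same-day control (x axis), for the 10 genes (y axis) on days 1, 3 and 7 after Cd (top) and Cr (bottom). Points are limma estimates with 95% confidence intervals, filled where the adjusted p was 0.05 or less; filled points are seen on day 1 only, 5 for Cd and 7 for Cr, of which Itih3 after Cr lies below 0.

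Lbp had the largest difference of the members after either metal on day 1. Its log2 signal was 11.12, 10.75, 11.05 and 9.92 in exposed Cd livers, against 7.85, 7.30, 8.61, 8.50 and 8.40 in day 1 controls. The lowest exposed liver thus lay more than 1 log2 unit above the highest control. The rise was 2.58 ± 0.33 (SE), or 5.97-fold (adjusted p = 2.61e-06). In Cr livers Lbp was 7.69, 8.56, 8.67, 7.29 and 9.80, against 7.51, 7.36, 7.30, 7.38 and 7.38 in their controls. Of these 5 exposed livers 4 lay above all controls and 1 below all of them. The rise after Cr was 1.02 ± 0.25 (2.03-fold, adjusted p = 0.00263), and 0.67 without the liver at 9.80 (adjusted p = 0.00535).

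The rise of Lbp differed between the metals and between the days. The day 1 effect of Cd exceeded that of Cr by 1.56 ± 0.43 (adjusted p = 0.00965), in a contrast in which 4.63% of all probe sets were called higher. By day 3, Lbp was 7.91, 7.79, 8.14, 8.18 and 7.25 in exposed Cd livers, against 6.65, 7.30, 6.95, 6.94 and 7.37 in controls, a difference of 0.81 ± 0.31 (adjusted p = 0.322). Here 4 of 5 exposed livers were above all controls. The day 1 effect of Cd exceeded the day 3 effect by 1.77 ± 0.45 (adjusted p = 0.0173; 2.35% of all probe sets were called higher) and the day 7 effect by 2.02 ± 0.45 (adjusted p = 0.00628; 2.91%). After Cr, Lbp ranged over 7.12 to 7.48 in exposed livers and 6.83 to 7.32 in controls on day 3, and over 6.84 to 7.35 in exposed livers and 7.20 to 7.53 in controls on day 7, and both pairs of ranges overlapped. Its day 1 effect exceeded its day 7 effect by 1.24 ± 0.35 (adjusted p = 0.0203; 6.23% called higher). The excess over day 3 was 0.76 ± 0.35 (adjusted p = 0.18).

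Orm1 was higher on day 1 after both metals, and 4 of the 5 exposed Cd livers were still above every control on day 3. On day 1 the exposed Cd livers had log2 signals of 14.52, 14.55, 14.62 and 14.34, against 13.25, 12.75, 13.46, 13.51 and 13.32 in controls. There was no overlap, and the exposed livers lay close to the upper end of the array's scale, where the highest signal of any probe set was 14.76 to 14.89 per array. The rise was 1.25 ± 0.25 (2.38-fold, adjusted p = 0.000867). On day 3 the exposed Cd livers had 13.78, 13.77, 13.94, 14.09 and 12.91, against 12.98, 12.67, 12.48, 12.61 and 12.85 in controls. This difference of 0.98 ± 0.24 had an adjusted p of 0.050001, just past the threshold, and of 0.0465 with a replicate block. One liver, at 12.91, lay within the control range, and without it the difference was 1.18 (adjusted p = 0.00539). In Cr livers on day 1 Orm1 was 12.36, 13.03, 12.96, 12.68 and 13.97, against 11.79, 12.32, 12.37, 12.60 and 12.29 in controls, a rise of 0.73 ± 0.22 (adjusted p = 0.0126) with 4 of 5 exposed livers above every control. The Cr rise was 0.48 without the liver at 13.97 (adjusted p = 0.0528), and 0.42 (adjusted p = 0.0898) against the 15 Cr controls of all days. On day 7 after Cr, Orm1 was 12.02 to 12.70 in exposed livers and 12.55 to 13.17 in controls, a difference of -0.48 ± 0.22 (adjusted p = 0.536). The day 1 effect of Cr on Orm1 exceeded its day 7 effect by 1.21 ± 0.31 (adjusted p = 0.00972), and by 0.59 (adjusted p = 0.0709) with the controls of all days.

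A2m varied widely between livers of 1 group, and was called in no same-day comparison. Exposed Cd livers had log2 signals of 13.41, 12.62, 12.03 and 9.85 on day 1, against 10.99, 9.40, 10.47, 10.97 and 10.88 in controls. Of the 4 exposed livers 3 lay above every control and 1 below 4 of the 5. The difference was 1.43 ± 0.71 (95% CI -0.02 to 2.88, adjusted p = 0.229), and 2.14 without the liver at 9.85 (adjusted p = 0.0451). Exposed Cr livers on day 1 split more widely, at 8.18, 11.55, 10.49, 7.63 and 12.07, against 9.97, 9.16, 8.53, 8.97 and 9.78 in controls. The highest 3 exposed livers lay above all controls and the other 2 below all of them. That difference was 0.70 ± 0.59 (adjusted p = 0.422). On day 3 A2m was 8.85 to 11.11 in exposed Cd livers and 8.50 to 10.11 in controls (0.99 ± 0.67, adjusted p = 0.692), and 9.44 to 10.76 in exposed Cr livers and 8.46 to 9.69 in controls (1.12 ± 0.59, adjusted p = 0.775). The upper ends of the 95% intervals of the 3 further differences were 1.92 (Cr, day 1), 2.36 (Cd, day 3) and 2.34 (Cr, day 3) log2 units.

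**Figure D2:**
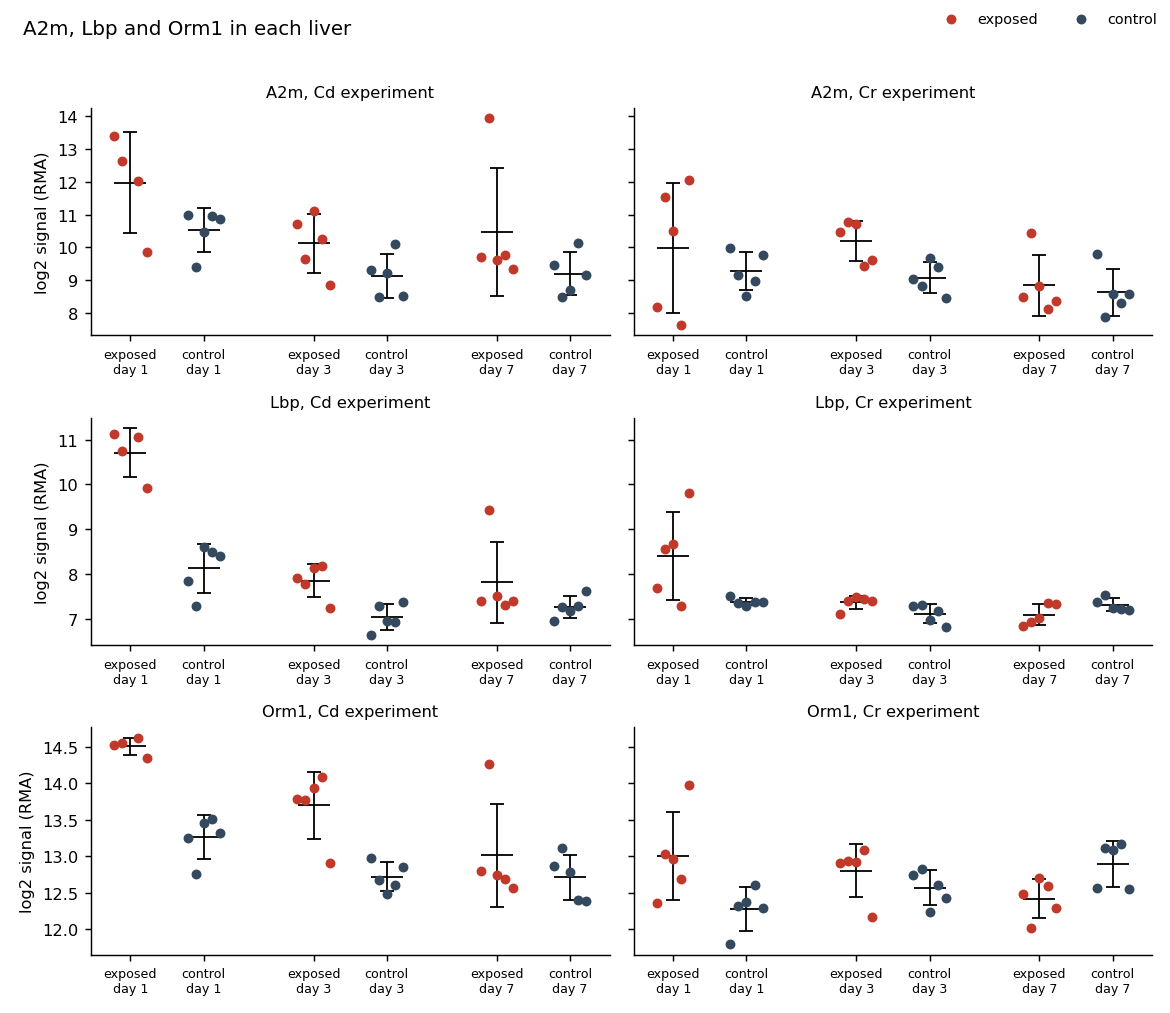
Log2 signal (RMA, y axis) of A2m, Lbp and Orm1 in each liver, exposed livers beside their same-day controls (x axis), Cd on the left and Cr on the right; the bar and whiskers give the mean and SD. The 4 exposed Cd livers on day 1 lie apart from controls for Lbp (9.92 to 11.12) and Orm1 (14.34 to 14.62), and 1 exposed Cd liver on day 7 stands above the others for all 3 genes.

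For these 3 genes the day 1 controls of the Cd experiment had higher means than those of later days. The day 1 mean exceeded that of the Cd controls of days 3 and 7 by 1.38 ± 0.58 for A2m (adjusted p = 0.541), 0.98 ± 0.27 for Lbp (adjusted p = 0.122) and 0.54 ± 0.21 for Orm1 (adjusted p = 0.448). Of the 10 members 0 were called in that comparison, where 0.541% of all probe sets were called higher. At an unadjusted p of 0.05 or less there were 3 members, against 7.52% of all probe sets. Lcn2, which encodes the acute phase protein lipocalin-2, was 7.73, 4.23, 9.94, 10.27 and 9.56 in these 5 day 1 controls, against 4.64 to 7.06 in the day 3 controls and 4.21 to 6.93 in the day 7 controls. Against the Cd controls of days 3 and 7 instead, the day 1 difference of A2m was 2.82 ± 0.62 (adjusted p = 0.00191) and that of Lbp, Orm1, Fga, Fgb, Fgg, Hp and Itih4 also passed, which made 8 members called. With the controls of all days pooled, as the study's methods had it, 8 members were called on day 1 after Cd, A2m among them (2.35 ± 0.63, adjusted p = 0.0087).

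The 3 fibrinogen chains were called higher on day 1 after both metals. Fgb had log2 signals of 14.46, 14.43, 14.54 and 14.40 in exposed Cd livers, against 14.11, 14.12, 14.14, 14.21 and 14.16 in controls, and 14.32, 14.45, 14.48, 14.34 and 14.52 in exposed Cr livers, against 14.04, 14.09, 14.12, 14.16 and 14.08 in controls. Exposed and control livers did not overlap for any of the 3 chains after either metal. The rise of Fgb was 0.31 ± 0.06 after Cd (adjusted p = 0.000236) and 0.32 ± 0.05 after Cr (adjusted p = 5.85e-06). Fga was 14.40 to 14.47 in exposed Cd livers and 14.09 to 14.29 in controls, and 14.40 to 14.56 in exposed Cr livers and 14.05 to 14.25 in controls. It rose by 0.25 ± 0.06 after Cd (adjusted p = 0.00376) and 0.28 ± 0.05 after Cr (adjusted p = 7.98e-05). Fgg was 14.45 to 14.54 in exposed Cd livers and 14.28 to 14.36 in controls, and 14.46 to 14.51 in exposed Cr livers and 14.11 to 14.27 in controls. It rose by 0.18 ± 0.05 after Cd (adjusted p = 0.00946) and 0.26 ± 0.04 after Cr (adjusted p = 2.45e-05). With quantile normalization run again, the Fgg difference after Cd was 0.10 (adjusted p = 0.2). The effects of the metals on the chains differed by -0.03 (Fga, 95% CI -0.17 to 0.11), -0.01 (Fgb, -0.14 to 0.12) and -0.08 (Fgg, -0.19 to 0.03), Cd minus Cr.

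These chains lie at the top of the array's scale. Their brightest probe sets averaged near 14 in every group, a level that 28 probe sets (0.0902%) reached on average. Fga had a second, dimmer probe set, at 13.50, 13.16, 13.52 and 13.01 in exposed Cd livers on day 1, against 12.51 to 12.75 in controls, and at 13.24, 13.48, 13.70, 13.08 and 13.19 in exposed Cr livers, against 12.22 to 12.55 in controls. It rose by 0.69 ± 0.12 after Cd (1.62-fold, adjusted p = 0.000195) and by 0.91 ± 0.08 after Cr (1.88-fold, adjusted p = 1.84e-08), more than the brighter one in both cases. Over the 59 arrays the dimmer set spanned 1.58 log2 units and the brighter one 0.56, and they ordered the livers alike (Pearson r = 0.912, Spearman rho = 0.776, given as a description). Fgb had a pair of further probe sets at 4.63 to 5.40 and 3.49 to 4.40 over all livers, near the low end of the scale, where the array medians were 5.38 to 5.46. The brighter of this pair was lower in exposed Cr livers on day 1 by 0.25 ± 0.09 (adjusted p = 0.0437), and neither was called after Cd.

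**Figure D3:**
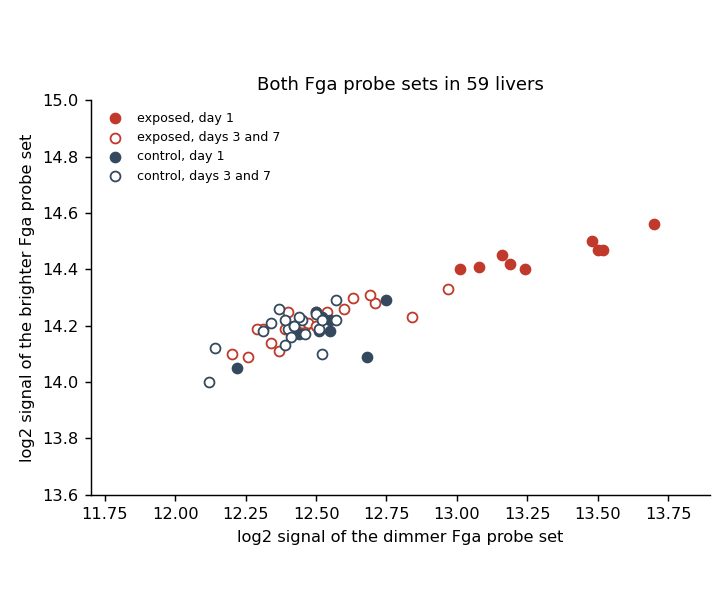
Log2 signal of the brighter Fga probe set (y axis) against that of the dimmer one (x axis), at equal units, 1 point per liver for 59 livers, exposed in red, controls in dark blue, day 1 filled and days 3 and 7 open. The exposed livers of day 1 lie to the right, at 13.01 to 13.70 on the dimmer set and 14.40 to 14.56 on the brighter one.

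The fibrinogen chains were called on day 1 alone. After Cd, Fga averaged 14.25 in exposed livers and 14.18 in controls on day 3, and 14.23 in exposed livers and 14.16 in controls on day 7. The Cd differences of the 3 chains were 0.07 to 0.09 on day 3 and 0.04 to 0.07 on day 7. After Cr they were 0.01 to 0.04 on day 3 and -0.04 to 0.04 on day 7. The day 1 effect of Cr exceeded that of day 3 by 0.26 ± 0.07 for Fga (adjusted p = 0.0146), 0.29 ± 0.07 for Fgb (adjusted p = 0.00449) and 0.26 ± 0.06 for Fgg (adjusted p = 0.00502), where 7.01% of all probe sets were called higher. It exceeded that of day 7 by 0.33 (Fga, adjusted p = 0.00296), 0.28 (Fgb, adjusted p = 0.0055) and 0.24 (Fgg, adjusted p = 0.00941). After Cd the corresponding excess over day 3 was 0.18, 0.22 and 0.11, and none of the 3 was called.

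Hp rose on day 1 after Cr, and after Cd its adjusted p lay just above the threshold. Exposed Cd livers had log2 signals of 14.56, 14.51, 14.57 and 14.49, against 14.38, 14.28, 14.41, 14.41 and 14.39 in controls (0.16 ± 0.05, adjusted p = 0.0541). Exposed Cr livers had 14.38, 14.42, 14.42, 14.35 and 14.47, against 14.20, 14.26, 14.20, 14.31 and 14.27 in controls (0.16 ± 0.04, adjusted p = 0.00716). No exposed liver overlapped the controls in either case. The effects of the metals differed by 0.00 (95% CI -0.12 to 0.12). Like the fibrinogen chains, Hp lies at the top of the array's scale, which limits what such a comparison can show. With quantile normalization run again, the Hp difference after Cr was 0.09 (adjusted p = 0.142). After Cd, Hp was called on day 1 under 6 of 9 alternative settings (lowest adjusted p = 0.00103). It was called in 0 of the 9 fits leaving out 1 liver. On later days Hp differed by 0.13 and 0.06 after Cd and by 0.04 and -0.03 after Cr, and its day 1 effect of Cr exceeded that of day 7 by 0.19 ± 0.06 (adjusted p = 0.0461).

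**Figure D4:**
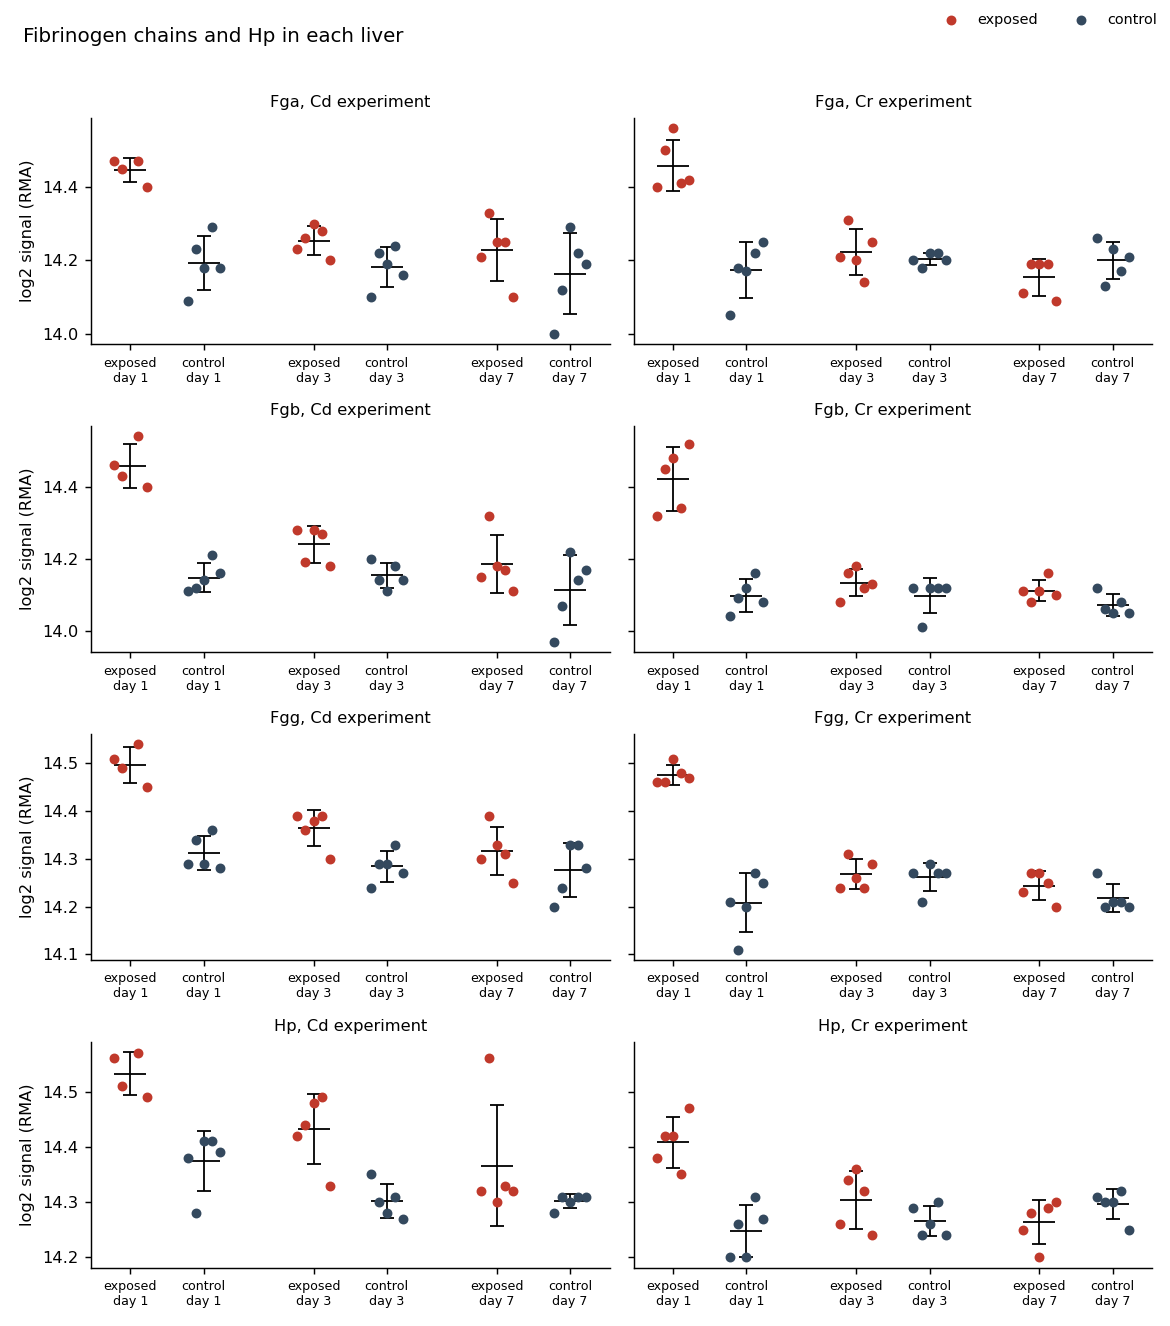
Log2 signal (RMA, y axis) of Fga, Fgb, Fgg and Hp in each liver, exposed livers beside their same-day controls (x axis), Cd on the left and Cr on the right; the bar and whiskers give the mean and SD. The y axes span less than 1 log2 unit. On day 1 every exposed liver lies above every control for the 4 genes, as with Hp at 14.49 to 14.57 in exposed Cd livers and 14.28 to 14.41 in controls.

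Crp, Itih3 and Itih4 were not called higher on any day. Crp, at 12.71, 12.65, 12.71 and 12.42 in exposed Cd livers on day 1, against 12.37, 12.43, 12.33, 12.52 and 12.58 in controls, differed by 0.18 ± 0.11 (adjusted p = 0.38). After Cr it was 11.87, 11.89, 12.20, 12.11 and 12.36 in exposed livers, against 12.20, 12.19, 12.10, 12.41 and 12.34 in controls (-0.16 ± 0.09, adjusted p = 0.219). Both pairs of groups overlapped, and the day 1 effects of the metals differed by 0.34 ± 0.15, Cd minus Cr (adjusted p = 0.133). Against the Cr controls of all days the Cr difference was -0.25 ± 0.08 (adjusted p = 0.0116).

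Itih3 was the only member called lower. In exposed Cr livers on day 1 it was 13.91, 13.95, 13.97, 13.81 and 14.12, against 14.03, 14.09, 14.08, 14.12 and 14.10 in controls, and 4 of the 5 exposed livers lay below every control. It fell by 0.14 ± 0.05 (adjusted p = 0.0401), a call that 8 of the 10 fits leaving out 1 liver lost, with adjusted p up to 0.154, and that was also lost with quantile normalization run again (-0.07, adjusted p = 0.341). In exposed Cd livers it was 14.07 to 14.11, against 13.98 to 14.07 in controls (0.05 ± 0.05, adjusted p = 0.632), and the Cd effect exceeded the Cr effect by 0.18 ± 0.06 (adjusted p = 0.0316). Itih4 differed by 0.19 ± 0.08 on day 1 (adjusted p = 0.129), 0.24 ± 0.07 on day 3 (adjusted p = 0.178) and 0.19 ± 0.07 on day 7 after Cd (adjusted p = 0.705). On day 1 its exposed Cd livers, at 13.95 to 14.10, did not overlap the controls, at 13.65 to 13.89. On day 3 its exposed Cd livers, at 13.92, 13.96, 14.07, 13.98 and 13.76, all lay above the controls, at 13.74, 13.66, 13.65, 13.74 and 13.73, which made Itih4 the 1 member without overlap on that day. After Cr, Itih4 differed by -0.08, 0.09 and -0.02 on days 1, 3 and 7, and its Cd effect minus its Cr effect on day 1 was 0.27 ± 0.10 (adjusted p = 0.0771).

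**Figure D5:**
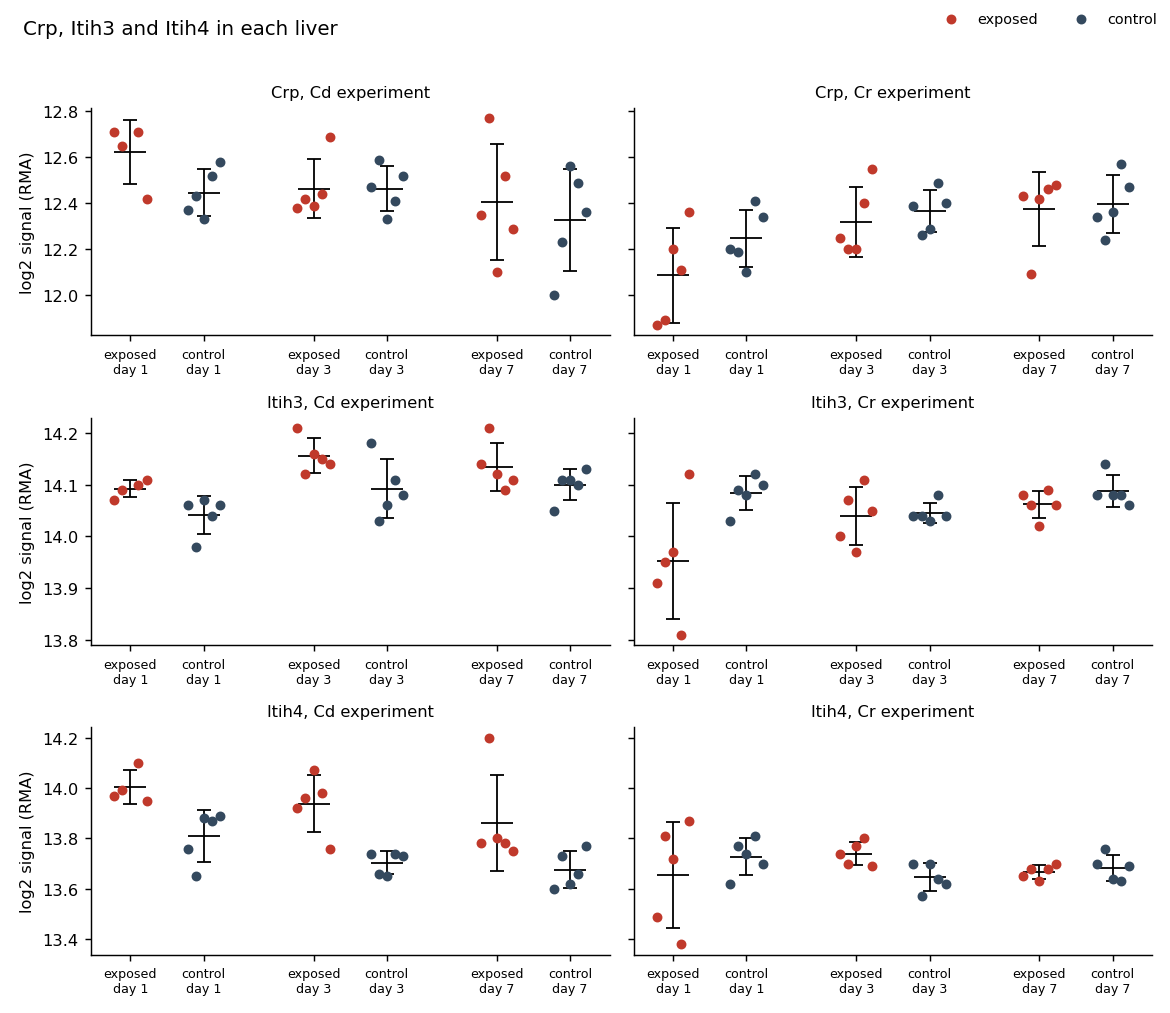
Log2 signal (RMA, y axis) of Crp, Itih3 and Itih4 in each liver, exposed livers beside their same-day controls (x axis), Cd on the left and Cr on the right; the bar and whiskers give the mean and SD. Exposed and control livers overlap for most groups; Itih3 in exposed Cr livers on day 1 reaches down to 13.81, against 14.03 in the lowest control.

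Individual livers carried high or low values of many members at once. On day 7 after Cd the exposed liver numbered 2 had the highest value of its group for 10 of the 10 genes. Its A2m was 13.94 against 9.35 to 9.78 in the other 4 exposed livers, its Lbp 9.44 against 7.32 to 7.52 and its Orm1 14.27 against 12.56 to 12.80. Without this liver the Cd day 7 differences of A2m, Lbp and Orm1 were 0.41, 0.15 and -0.01, against 1.28, 0.56 and 0.30 with it. Lcn2 was also high in it, at 12.53 against 5.32 to 6.71 in the other 4. The summed signal of neutrophil and monocyte markers was 11.95 in it, against 10.53 to 11.73. The 11.73 was in number 4, where Lcn2 was 5.32. Among the exposed Cd livers of day 3, number 5 had the lowest value for 8 of the 10 genes and the lowest Lcn2, at 5.12 against 12.95 to 13.64 in the other 4. Among those of day 1, number 5 was the lowest for 9 of the 10, and its Lcn2 was 11.96 against 13.63 to 13.91. Both of these livers numbered 5 had the lowest neutrophil and monocyte sum of their group. It was 11.04 on day 3 (others 11.35 to 12.70) and 11.89 on day 1 (others 12.18 to 12.79). In the exposed Cr livers of day 1, number 5 was the highest for 8 of the 10 but had the lowest neutrophil and monocyte sum, at 10.54. Numbers 1 and 4 were the lowest for 5 each, and number 1 had the highest such sum, at 11.57. Controls also carried high or low values of many members at once. The Cd control numbered 1 on day 7 was the lowest for 8 of the 10, and the Cr control numbered 4 on day 1 the highest for 7.

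Markers of other liver cells moved in the same samples. On day 1 after Cd, 10 of 10 measured Kupffer cell markers (resident macrophages) were lower, and their summed signal was 8.81, 9.15, 8.50 and 11.25 in exposed livers, against 12.17 to 12.66 in controls, on a log2 scale. In whole liver, fewer cells of a type and less RNA per cell cannot be told apart. The liver with the least reduced sum, number 5, was the one lowest for 9 of the 10 acute phase genes. Likewise, among the exposed Cd livers of day 3, number 5 had the highest sum and was the lowest for 8 of the 10 genes. That sum was 12.66, against 12.10 to 12.35 in the other exposed livers. In some groups the order went the other way. The exposed Cd liver numbered 2 on day 7 and the exposed Cr liver numbered 5 on day 1 were highest for 10 and 8 acute phase genes. Their Kupffer cell sums, 12.89 and 12.81, were the highest of their groups. On day 1 after Cr the sum was 12.23 to 12.81 in exposed livers and 12.18 to 12.63 in controls. Of the 10 Kupffer cell markers 1 was then higher, near the 14.8% of all probe sets, and 0 were lower. Of 12 neutrophil and monocyte markers, 6 were higher on day 1 after Cd (summed 11.89 to 12.79 in exposed livers, 10.22 to 11.38 in controls) and 4 on day 1 after Cr (10.54 to 11.57 in exposed livers, 10.14 to 10.91 in controls). Of 15 hepatocyte markers 1 was higher and 5 were lower on day 1 after Cd, and 2 and 4 after Cr. Of 10 endothelial markers 3 were higher and 0 lower after Cd. After Cr 1 was higher and 1 lower, near the share of all probe sets. Of 5 bile duct markers 0 were higher and 2 lower after Cd, and 2 and 0 after Cr. Pancreas markers summed to 8.99 to 9.50 in exposed Cd livers, against 10.06 to 10.39 in controls. In exposed Cr livers they summed to 9.57 to 9.90, against 10.10 to 10.69. Further marker lists are not described. Over all probe sets, 6.39% were higher and 1636 of 31042 lower on day 1 after Cd, and 14.8% were higher and 11.2% lower after Cr. The 2 of 15 hepatocyte markers higher after Cr are near the share of all probe sets. Alb, the gene of serum albumin, was at 14.82 in exposed Cd livers and 14.84 in controls on average, and at 14.86 in both Cr groups. These means lie at the top of the array's scale, so changes in hepatocyte content cannot be read from them. The part of these cell types in the results was not tested. Differences between 3′ and 5′ probe sets of 3 control genes, a measure of RNA integrity, overlapped between exposed and control livers on day 1. In the Cr experiment their medians were nevertheless lower in exposed livers for GAPDH (0.20, against 0.47 in controls) and beta-actin (1.69, against 2.13), and the part of this in the results was not tested.

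Other acute phase proteins gave a mixed picture on day 1. Of 21 further positive acute phase genes measured, 12 were higher and 1 lower after Cd, and 6 were higher and 5 lower after Cr. Their median difference was 0.39 after Cd and -0.04 after Cr. Over all probe sets, 6.39% were higher and 1636 of 31042 lower after Cd, and 14.8% were higher and 11.2% lower after Cr. The positive genes named here had the largest differences, and those called lower are not named. Lcn2 rose by 4.97 ± 1.44 after Cd (adjusted p = 0.0209) and 2.71 ± 0.66 after Cr (adjusted p = 0.00251), and on day 3 after Cd by 5.61 ± 1.36 (adjusted p = 0.0494). Serpina3n, a protease inhibitor of the alpha-1-antichymotrypsin family, rose by 1.22 ± 0.15 and 0.79 ± 0.11 (adjusted p = 1.52e-06 and 1.98e-06). Hamp, the iron hormone hepcidin, rose by 1.45 ± 0.34 and 0.67 ± 0.24 (adjusted p = 0.0039 and 0.0405). Steap4, a metalloreductase, rose by 1.64 ± 0.21 after Cd (adjusted p = 1.97e-06) and differed by 0.21 ± 0.16 after Cr (adjusted p = 0.351). Of 12 negative acute phase genes, whose products decline in inflammation, 5 were lower after Cd and 6 after Cr, and 0 were higher. Serpina6, the corticosteroid-binding globulin, fell by 0.99 ± 0.17 after Cd and by 0.78 ± 0.15 after Cr (adjusted p = 9.62e-05 and 0.000165), and Igfals, the acid-labile subunit that carries insulin-like growth factors, fell by 0.76 ± 0.15 and by 0.78 ± 0.11 (adjusted p = 0.000583 and 2.15e-06). F12, coagulation factor XII, and Apoa4, an apolipoprotein, fell after Cr, by 0.50 ± 0.08 (adjusted p = 2.16e-05) and by 0.60 ± 0.21 (adjusted p = 0.0317). After Cd, F12 differed by -0.06 ± 0.09 (adjusted p = 0.771). Apoa4 differed by -0.49 ± 0.17 after Cd, with an adjusted p just above the threshold (0.0671).

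Relatives of the members in the inter-alpha-trypsin and macroglobulin families were lower or not called. Of the 5 measured, 0 were called after Cd and 3 were lower after Cr on day 1, where 11.2% of all probe sets were lower. Itih1, another heavy chain gene, fell by 0.55 ± 0.08 after Cr (adjusted p = 3.05e-06), and Mug1 and Pzp, both of the macroglobulin family, fell by 0.94 ± 0.24 and by 0.21 ± 0.07 (adjusted p = 0.00328 and 0.0376). The corresponding Cd differences were -0.08 ± 0.05, -0.82 ± 0.29 and 0.03 ± 0.06 (adjusted p = 0.352, 0.0697 and 0.803). The adjusted p of Mug1 thus lay just above the threshold after Cd. Mug1, Pzp and A2m are similar in sequence, and how far their probes share signal was not examined.

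Genes of the pathways that switch on the acute phase were called mainly higher on day 1: of 29 measured, 10 were higher and 1 lower after Cd, and 11 were higher and 2 lower after Cr. Over all probe sets, 6.39% were higher and 1636 of 31042 lower after Cd, and 14.8% were higher and 11.2% lower after Cr. Stat3 rose by 1.44 ± 0.21 after Cd and 1.34 ± 0.13 after Cr (adjusted p = 1.33e-05 and 4.25e-08). Cebpd, a C/EBP factor induced by cytokines, rose by 2.31 ± 0.22 and 0.93 ± 0.15 (adjusted p = 3.30e-08 and 2.34e-05). Nfkbiz, a nuclear regulator of NF-kB, rose by 1.62 ± 0.20 and 0.54 ± 0.18 (adjusted p = 1.80e-06 and 0.0222). The interleukin-1 receptor gene Il1r1 rose by 1.20 ± 0.18 after Cd (adjusted p = 2.20e-05) and differed by 0.02 ± 0.18 after Cr (adjusted p = 0.947). On day 3, 1 of the 29 was called after Cd and 0 after Cr, and on day 7 none was called after either metal.

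The genes whose signal most resembled that of Lbp over the 59 livers were C4bpa (Pearson r = 0.903), Serpina3n (0.900), Hpx (0.898), Pla1a (0.896) and Slc39a14 (0.887), of 14216 genes compared. C4bpa encodes a complement regulator, Hpx the haem carrier hemopexin, Pla1a a phospholipase and Slc39a14 a zinc and iron transporter. The exposed Cd livers of day 1 lie apart from the rest and weigh heavily in these values, which are a description. Among the members the likeness to Lbp ran from Hp (r = 0.853) and Orm1 (0.822) through Fgb (0.805), A2m (0.752), Fgg (0.741), Itih4 (0.708) and Fga (0.690) to Crp (0.339) and Itih3 (0.115). Pla1a rose by 2.24 ± 0.34 on day 1 after Cd (adjusted p = 2.34e-05) and 1.14 ± 0.21 after Cr (adjusted p = 0.000107), whereas Slc39a14 rose by 0.92 ± 0.09 after Cd (adjusted p = 7.98e-08) and differed by 0.17 ± 0.09 after Cr (adjusted p = 0.197).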

How the data were processed

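RNA of 59 rat livers was hybridized to Affymetrix rat expression arrays, 1 per liver. The authors processed the arrays in Partek with the robust multi-array average (RMA), which adjusts background, normalizes by quantiles and summarizes probes, and deposited log2 signals. They were analysed without further normalization, and 57 array control probe sets were omitted. Gene names came from the array annotation, in which 20826 probe sets had 1 symbol, 436 several and 9780 none, and each gene was read on the brightest of its probe sets with 1 symbol.

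Each metal was fitted with limma 3.58.1 (R 4.3.3) over its 6 groups, and each exposed group was set against the controls of its day. Differences between days were contrasts in the same fit, and those between metals were contrasts in 1 fit over all 12 groups. P-values were two-sided, with Benjamini-Hochberg adjustment over 31042 probe sets per comparison. The fit was tested on simulated data. Tables and figures were made in Python 3.11.15. How precise a value can be is set by the number of arrays. No arrays were identical, and the lowest correlation within a group was 0.982.

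The members and gene lists were chosen with earlier results of these data known. Named genes were the 10 members, up to 4 genes per list with the largest difference among those called, and the 5 genes most like Lbp. The alternatives were controls pooled over days, a filter at a mean log2 signal of 6, a second quantile normalization, a trended robust and an unmoderated variance, array weights, both metals in 1 fit, a replicate block, other probe sets and leaving out each liver. The controls of days 3 and 7 in place of those of day 1 were added after the data had been seen. Scan dates were not used here.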

Additional observations from a re-analysis of the deposited data

Results flagged for a closer look

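Values of the 10 genes were screened for a liver far from the others of its group. Of 120 groups of values 16 held such a liver, where 1 in 20 would be 6. In 5 of them it was the exposed Cd liver numbered 2 on day 7, with A2m at 13.94 (others 9.35 to 9.78), Lbp at 9.44 (7.32 to 7.52), Orm1 at 14.27 (12.56 to 12.80), Hp at 14.56 (14.30 to 14.33) and Itih4 at 14.20 (13.75 to 13.80). The exposed Cd liver numbered 5 on day 3 was low for Orm1, at 12.91 (13.77 to 14.09), and high for Crp, at 12.69 (12.38 to 12.44).

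Among exposed Cr livers, number 1 on day 3 was low for Lbp, at 7.12 (7.40 to 7.48), number 5 on day 3 was low for Orm1, at 12.16 (12.90 to 13.08), and number 2 on day 7 was low for Crp, at 12.09 (12.42 to 12.48). The remaining 6 were controls. Hp was 14.28 in the Cd control numbered 2 on day 1 (others 14.38 to 14.41) and 14.25 in the Cr control numbered 5 on day 7 (14.30 to 14.32). In the Cr control numbered 2 on day 3, Fgb was 14.01 (14.12 in the other 4) and Fgg was 14.21 (14.27 to 14.29). Fgg was 14.27 in the Cr control numbered 1 on day 7 (14.20 to 14.21), and Itih3 was 14.08 in the Cr control numbered 4 on day 3 (14.03 to 14.04).

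Effects that differed between days or metals by their own test were the following, in log2 units. The Cd effect on Lbp was larger on day 1 than on day 3 by 1.77 and than on day 7 by 2.02. The Cr effect was larger on day 1 than on day 3 by 0.26 for Fga, 0.29 for Fgb and 0.26 for Fgg. It was larger on day 1 than on day 7 by 1.24 for Lbp, 1.21 for Orm1, 0.33 for Fga, 0.28 for Fgb, 0.24 for Fgg and 0.19 for Hp. On day 1 the Cd effect exceeded the Cr effect by 1.56 for Lbp and by 0.18 for Itih3.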

How the results depend on the processing

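The counts of members called on day 1 moved with the choice of controls after Cd: 8 were called with controls pooled over days and 8 with those of days 3 and 7, against 5 with same-day controls. Hp was also called on day 1 after Cd with the filter at 6, trended robust or unmoderated variance, and both metals in 1 fit. Its adjusted p was then 0.0092 to 0.0193. On day 3 after Cd, 0 members were called as reported, 1 with pooled controls, 1 with the filter at 6, 2 with array weights (Orm1 and Itih4), 1 with both metals in 1 fit and 0 to 1 when 1 liver was left out. The day 1 effect of Cd exceeded its day 3 effect for 1 member as reported, 3 with pooled controls, 2 with the filter and 2 with trended robust variance, and its day 7 effect for 1 as reported, 6, 2 and 2 under those settings and 3 with array weights. The Cd effect exceeded the Cr effect on day 1 for 2 members, and for 5 with pooled controls. Over all probe sets, 190 were called on day 3 after Cd, against 393 with pooled controls, 48 with unmoderated variance, 449 with array weights, 327 with both metals in 1 fit and 17 to 452 with 1 liver left out. On day 7 after Cd the count was 4, against 0 with pooled controls, 0 with trended robust variance, 0 with unmoderated variance, 1 with both metals in 1 fit and 0 to 10 with 1 liver left out. On day 3 after Cr it was 1, against 33 with pooled controls, 0 with the filter, 3 with quantile normalization, 2 with trended robust variance, 8 with array weights, 4 with both metals in 1 fit and 0 to 3 with 1 liver left out. On day 7 after Cr it was 39, against 0 with pooled controls, 25 with the filter, 19 with unmoderated variance, 104 with array weights, 62 with both metals in 1 fit and 15 to 78 with 1 liver left out. Of the dim Fgb probe sets, 1 reversed the day 1 direction after Cd (-0.12) and the other did not (0.12, adjusted p = 0.687), and both reversed it after Cr (-0.25 and -0.11). With quantile normalization run again, the day 1 differences of Fgg after Cd (0.10, adjusted p = 0.2) and of Hp and Itih3 after Cr (0.09 and -0.07, adjusted p = 0.142 and 0.341) were not called. The cause of these changes was not tested.

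With a replicate block, 1 member (Orm1) and 123 probe sets were called on day 3 after Cd, and 1 probe set on day 7 after Cd. On day 1 the block left 5 members called after Cd and 6 after Cr, with Itih3 lost (-0.14, adjusted p = 0.0769). Exposed and control livers with the same number deviated together at a mean r of 0.121 (-0.0824 to 0.28), and 17 of 29 pairs were over 0.1. The mean r for other numbers was -0.0301. Deviations from a group mean sum to 0, so this value follows from the first and is no separate comparison. Of 29 exposed livers, 19 matched their own number best among the 5 controls of their day. All 4 pairs were over 0.1 on day 1 after Cd, where the block changed no member's call, and not all were on the other days or after Cr, so pairing is a hint from the data and not from the labels.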
